A study of Caenorhabditis elegans with 36 samples.

Results

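Starvation arrests the development of newly hatched Caenorhabditis elegans larvae, and the transcription factor DAF-16, the worm FoxO protein, is one of the factors that larvae use to survive this arrest. DAF-16 is held in the cytoplasm when food is present, because insulin-like peptides activate the receptor DAF-2, which signals through the kinases PDK-1, AKT-1 and AKT-2 to phosphorylate it. When food is absent this signal falls, DAF-16 enters nuclei and activates genes of stress defence and metabolism. The data described here give the interaction of starvation with a daf-16 mutation: for each gene, the log2 difference between starved and untreated daf-16 larvae minus the same difference in the wild type N2. A negative interaction means that starvation left the gene lower in daf-16 larvae, relative to untreated larvae of the same strain, than it did in N2, and a positive one means the opposite.

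The interaction rests on 11 of the 36 arrays of the series, chosen by genotype and treatment: 2 arrays of starved daf-16 larvae, 3 of untreated daf-16 larvae, 3 of starved N2 larvae and 3 of untreated N2 larvae. All are synchronized larvae of the first stage (L1), and neither the daf-16 allele nor the number of lines is stated in the labels. A single handling protocol is attached to every sample, with 4 h on food, then UV irradiation and a harvest 6 h later, so how long the starved larvae were without food is not stated. The other arrays hold UV-treated larvae of both strains, and daf-2 and daf-2;daf-16 larvae untreated, irradiated or starved. The daf-2 strain carries a mutation of the insulin receptor gene and daf-2;daf-16 carries both.

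Total RNA of whole larvae was hybridized to Affymetrix C. elegans Genome Arrays, and the deposited log2 values ran from 2.63 to 14.9 with array medians between 5.79 and 5.88. Of 22548 probe sets that are no controls, 20766 could be named by 1 gene symbol. Replicates of the 4 groups differed with a standard deviation of 0.167 to 0.242 (log2) across probe sets, and the 2 starved daf-16 arrays with 0.188. The intestinal factor elt-2 (7.57 to 7.99) and the muscle myosin myo-3 (10.13 to 10.91) were well expressed on all 11 arrays, while the adult yolk gene vit-2 stayed at 3.04 to 3.51. Other adult genes read higher: vit-5 4.69 to 5.28, vit-6 5.48 to 6.17, cbd-1 4.15 to 5.69 and perm-2 5.89 to 6.64. The values of perm-2 lay above the array medians, so not every adult marker was low. The 3′ minus 5′ signal of the Gapdh control lay at 0.592 to 0.621 in starved daf-16, 0.619 to 0.859 in untreated daf-16, 0.327 to 0.622 in starved N2 and 0.726 to 0.911 in untreated N2, so the ranges of the starved and untreated arrays overlapped slightly in daf-16 and not in N2. The actin control lay at 0.507 to 0.583, 0.671 to 0.739, 0.550 to 0.835 and 0.676 to 0.948 in the same 4 groups, and the ubiquitin control ran the other way, at 4.99 to 5.18, 4.81 to 4.97, 4.93 to 5.06 and 4.75 to 4.95. The part of these measures in the results was not tested. No array of these 4 groups was among the 3 of the series that were set aside in some fits as standing apart from their replicates. Those are daf-2;daf-16 untreated replicate 1 (array weight 0.298), daf-2;daf-16 starved replicate 4 (0.437) and daf-16 UV replicate 3 (0.327). They were named one by one and not by a cut on the weight, since N2 UV replicate 1 (0.432) was kept. Within the 4 groups the lowest weight was 0.503, of starved N2 replicate 1, and the 2 starved daf-16 arrays had 1.14 each. In whole larvae, fewer cells of a type and less RNA per cell cannot be told apart. Nothing says that replicates came from separate cultures, so each p-value reflects sample-to-sample spread only, which may be technical, and the number of arrays limits the precision.

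Most of the starvation response was shared by the strains. Starvation changed 11547 probe sets in daf-16 (51.2% of those tested) and 11963 in N2 (53.1%), each at an adjusted p under 0.05 in limma. Of these, 9706 moved the same way in both strains, which is 84.1% of the daf-16 calls and 81.1% of the N2 calls. Across all probe sets the 2 responses correlated with r = 0.955 and a slope of 0.960 for daf-16 on N2, given as a description, since probe sets are not independent and the responses rest on separate arrays processed together. The molting genes, which are expressed in pulses as larvae prepare a new cuticle, fell in both strains, with median changes of -4.35 in daf-16 and -3.93 in N2. Of 34 measured, 27 fell in daf-16 and 26 in N2, where 24.2% and 24.7% of all probe sets did. In the interaction 1 of the 34 was called (2.94%), a share near the 3.24% of all genes.

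On this common background, 676 probe sets (3.00%) had an interaction past the threshold, 291 higher (1.29%) and 385 lower (1.71%). At least 2-fold were 226 of them (1.00%), 72 higher and 154 lower. At an unadjusted p under 0.05 there were 2911 (12.9%). The 385 lower probe sets had a median interaction of -0.919, with a median starvation response of -0.0498 in daf-16 and 0.829 in N2. They comprised 185 that went up in both strains but less in daf-16, 106 that went down in daf-16 and up in N2, and 94 that went down in both but further in daf-16, by the sign of the 2 responses. The 291 higher probe sets had a median interaction of 0.732, with median responses of 0.585 in daf-16 and -0.202 in N2: 117 went up in both strains but further in daf-16, 110 went down in both but less in daf-16, and 64 went up in daf-16 and down in N2.

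**Figure D1:**
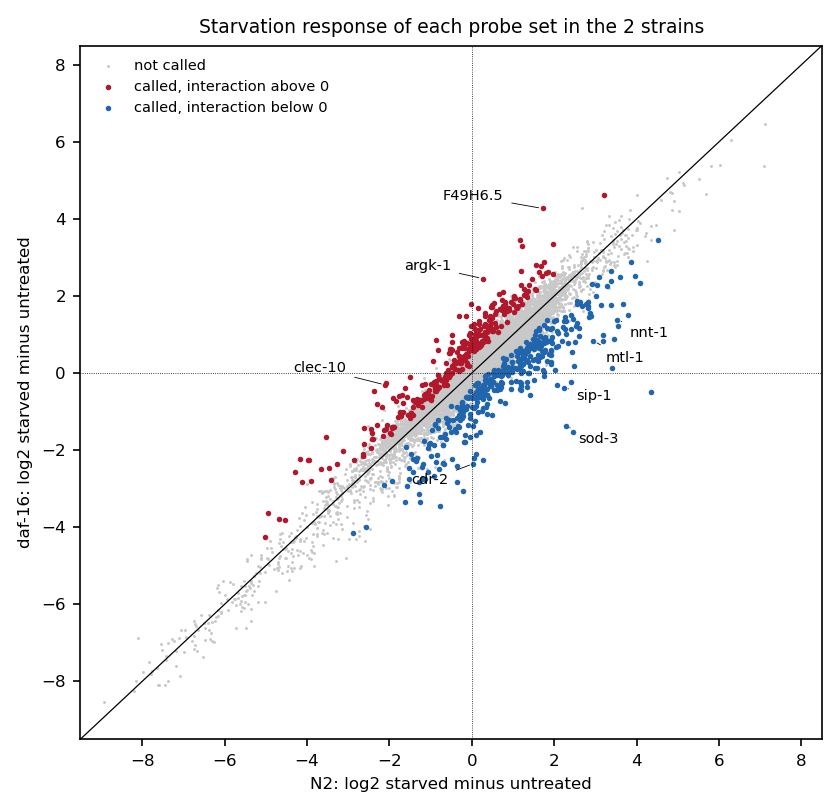
Starvation response (log2 starved minus untreated) of each of 22548 probe sets in daf-16 (vertical) against N2 (horizontal); coloured points are the 291 probe sets called with an interaction above 0 and the 385 called below 0, and the line marks equal responses. Most points lie along the line; sod-3 and sip-1 lie where N2 rose and daf-16 fell, and F49H6.5 and argk-1 where daf-16 rose further.

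For most of these probe sets the strains differed under starvation rather than before it. In 309 of the 385 lower ones, starved daf-16 was itself called below starved N2, a difference called for 3.72% of all probe sets in that direction, and in 58 untreated daf-16 was called above untreated N2, against 0.825% of all probe sets. Of the 291 higher ones, 244 were called above N2 among starved larvae (4.04% of all probe sets) and 28 below N2 among untreated larvae (0.603%). The starved arrays enter both the interaction and the starved difference, so these counts describe its composition and give it no separate support.

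With either starved daf-16 array left out the count of 676 dropped by over 1.5 times, to 416 without replicate 1 and 386 without replicate 2, and no probe set called in the full data changed sign when any 1 of the 11 arrays was left out. The count grew to 1195 when the 3 arrays that stood apart, none of which belongs to the 4 groups, were left out of the shared estimate of spread.

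Known targets of DAF-16 were among the genes with lower interactions. A list of 22 measured genes that DAF-16 is known to activate had 8 members called lower and none higher, or 36.4% called, against 3.24% of all 17118 genes counted through 1 probe set each (1.44% higher, 1.80% lower). In N2, 18 of the 22 were called higher upon starvation (28.3% of all probe sets) and 1 lower (24.7%), with a median response of 1.61; in daf-16 larvae 12 were called higher (27%) and 5 lower (24.2%), with a median of 0.39. The median interaction of the list was -0.54, against 0.01 for all genes. Among starved larvae 14 of the 22 were called lower in daf-16 than in N2, a comparison that called 7.75% of all probe sets in either direction, and among untreated larvae 3 (1.43% in either direction). The list was drawn up from earlier knowledge of daf-16 with results of these data known.

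Among genes read by an unshared probe set the largest interaction was that of sod-3, the mitochondrial manganese superoxide dismutase that serves as the standard reporter of DAF-16 activity. Its log2 values were 4.67 and 4.34 in starved daf-16 and 5.83, 5.93 and 5.91 in untreated daf-16, against 7.76, 7.79 and 7.55 in starved N2 and 5.24, 5.31 and 5.69 in untreated N2. Starvation thus lowered sod-3 in the mutant and raised it in the wild type, with no overlap between any starved and untreated group of either strain. The response was -1.38 ± 0.14 in daf-16 and 2.28 ± 0.13 in N2 (log2 ± SE), and the interaction was -3.67 ± 0.19 (adjusted p = 2.1e-14), a 12.7-fold difference in response.

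A small heat shock protein, sip-1, behaved in the same manner. It read 5.86 and 5.94 in starved daf-16 and 6.24, 6.23 and 6.37 in untreated daf-16, against 8.88, 8.82 and 8.84 in starved N2 and 6.78, 6.4 and 6.63 in untreated N2. Its response was called in both strains, -0.38 in daf-16 and 2.24 in N2, with an interaction of -2.62 ± 0.20 (adjusted p = 8.8e-11). Both of its probe sets were called. It was the only 1 of 12 measured small heat shock protein genes called in the interaction, and none of 52 measured chaperones of other classes was called (1 at an unadjusted p under 0.05 in limma).

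Other targets rose in both strains but by less in daf-16. The metallothionein mtl-1, which binds heavy metals, had values of 4.16 and 4.50 in starved daf-16 and 3.29, 3.63 and 3.58 in untreated daf-16, against 7.67, 6.52 and 6.96 in starved N2 and 4.42, 3.91 and 3.98 in untreated N2 (interaction -2.13 ± 0.30, adjusted p = 1.6e-05). For nnt-1, the mitochondrial transhydrogenase that makes NADPH, the values were 7.76 and 7.63 in starved daf-16 and 6.22, 6.29 and 6.41 in untreated daf-16, against 9.68, 9.60 and 9.75 in starved N2 and 6.58, 5.70 and 6.16 in untreated N2 (interaction -2.15 ± 0.27, adjusted p = 2.7e-06). The starved daf-16 arrays stood below every starved N2 array for both genes. The linker histone gene hil-1 rose by 2.34 in daf-16 and 4.08 in N2, an interaction of -1.74. The remaining called members were the AMP kinase subunit gene aakg-4 (-0.98), the omega-class glutathione transferase gene gsto-1 (-0.80) and dod-6 (-0.53); gsto-1 lost its call when any 1 of 9 arrays was left out.

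The desiccation protein gene lea-1, also a known target, was not counted among the 8 because its brightest probe set was not called. Of its 6 probe sets 3 were called lower, at -2.34, -2.18 and -0.52. The interactions of all 6 ran from -2.34 to -0.05, so the probe sets of this gene disagree in size. Among 15 genes described here that have several probe sets, none had probe sets called in opposite directions and 7 had all of them called the same way. Genes that DAF-16 is known to repress gave 2 calls of 15, both higher, where 1.44% of all genes were called higher. They were C32H11.4 (1.21 ± 0.25) and ins-7 (1.02 ± 0.25).

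**Figure D2:**
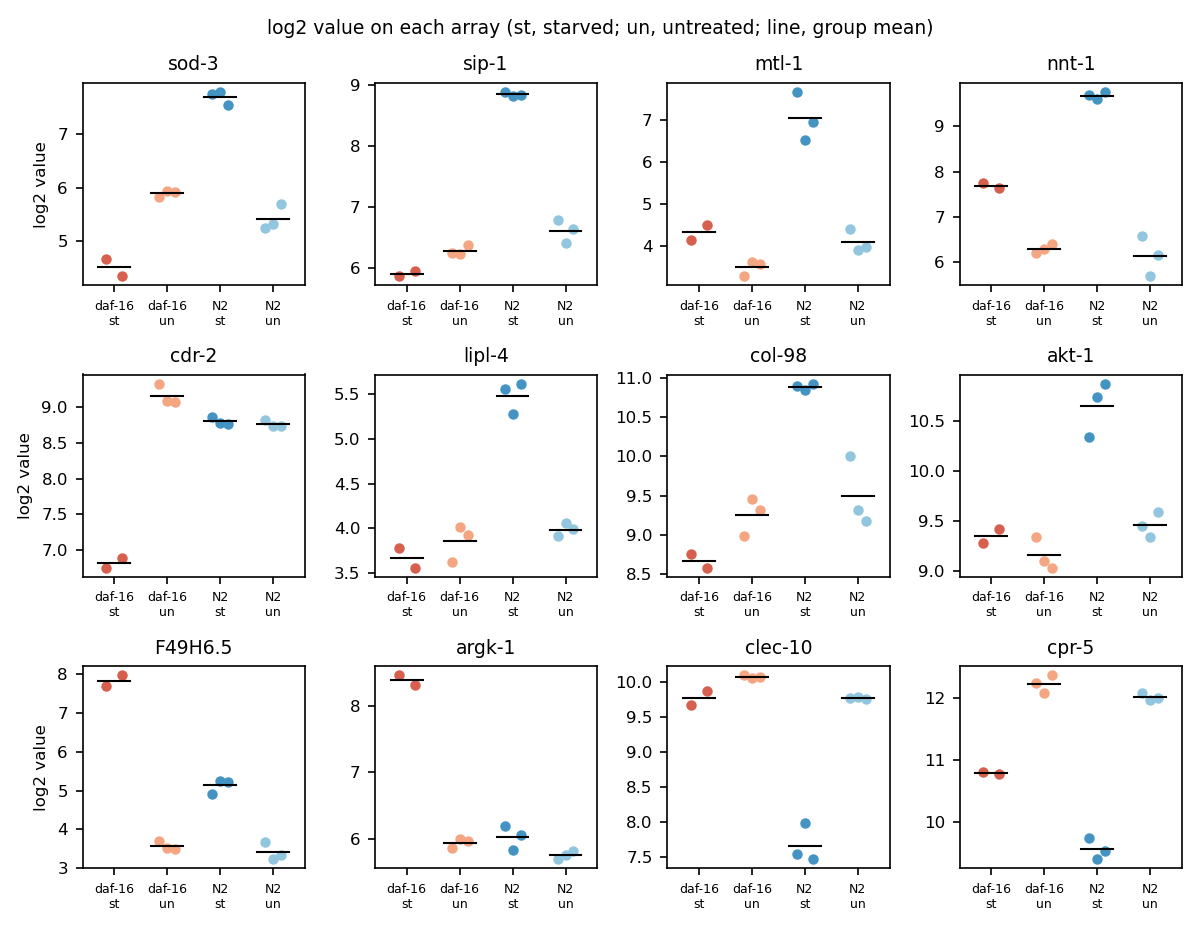
log2 value of 12 genes on each of the 11 arrays, with starved daf-16, untreated daf-16, starved N2 and untreated N2 from left to right; points are arrays and lines are group means, and each panel has its own scale. In the first 4 panels the starved N2 arrays stand above all others, and for F49H6.5 and argk-1 the starved daf-16 arrays do.

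Components of the insulin pathway itself were called as well. Of 24 measured members, 5 were called lower and 1 higher, where 1.80% and 1.44% of all genes were. The kinase gene akt-1 read 9.28 and 9.42 in starved daf-16 and 9.34, 9.10 and 9.03 in untreated daf-16, against 10.34, 10.74 and 10.87 in starved N2 and 9.45, 9.34 and 9.59 in untreated N2. Its rise of 1.19 in N2 was called and the change of 0.19 in daf-16 was not, and the interaction was -1.0 ± 0.22 (adjusted p = 0.0063), a call lost without starved daf-16 replicate 1. The upstream kinase gene pdk-1 rose by 0.43 in daf-16 and 1.27 in N2 (interaction -0.83 ± 0.15), with 2 of its 5 probe sets called and a range of -1.0 to -0.05 among them. The genes eak-3 and eak-4, which act with akt-1 in the control of dauer formation, had interactions of -0.88 and -0.90; the call of eak-3 was lost without starved daf-16 replicate 1 and that of eak-4 when any 1 of 4 arrays was left out. The gene daf-16 itself was the other lower member. The one member called higher was sgk-1, a related kinase gene, at 0.59.

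The daf-16 gene was measured by 4 probe sets, whose position relative to the mutation is unknown from the labels, so their levels check nothing about the label. Their interactions were -0.77, -0.66, -0.44 and -0.32, and the first 2 were called, the second of them with a call lost when any 1 of 8 arrays was left out. In the brightest of them daf-16 RNA was 9.14 and 9.22 in starved daf-16 and 8.67, 8.78 and 8.72 in untreated daf-16, against 9.22, 9.45 and 9.27 in starved N2 and 8.18, 8.06 and 8.0 in untreated N2. This interaction came from a higher untreated level in the mutant (0.65 above N2, adjusted p = 1.2e-04), since the starved strains differed by -0.13 (adjusted p = 0.57). None of the 4 probe sets of daf-2, the receptor gene, was called.

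Among 24 insulin-like peptide genes, ins-35 and ins-7 were called (8.33%, beside 3.24% of all genes). The values of ins-35 were 8.63 and 8.72 in starved daf-16 and 8.85, 8.97 and 8.93 in untreated daf-16, against 9.93, 9.97 and 9.87 in starved N2 and 9.11, 9.0 and 8.84 in untreated N2, so that only the starved N2 arrays stood apart (interaction -1.19 ± 0.18, adjusted p = 3.8e-05). For ins-7 the starved daf-16 arrays were the high ones, at 4.49 and 4.77, against 3.49 to 3.96 in starved N2; this call was lost without starved daf-16 replicate 2, starved N2 replicate 3 or untreated N2 replicate 2. Of 21 genes of the AMP kinase and TOR pathways aakg-4 alone was called. None was called of 22 genes of the dauer TGF-beta and steroid pathway, 26 stress and metabolic transcription factors or 29 autophagy genes, while 4, 6 and 2 of them had an unadjusted p under 0.05 in limma. Upon starvation 15, 21 and 22 of them rose in daf-16, where 27% of all probe sets did, and 15, 20 and 21 in N2, where 28.3% did. Without starved N2 replicate 1, 1 of the transcription factors and 1 of the autophagy genes were called.

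Most of the called genes of oxidative and metal defence were called lower, though most members of both lists were not called. The median interactions were -0.13 for the oxidative and -0.03 for the metal list, against 0.01 for all genes. Of all genes 1.80% were called lower and 1.44% higher. In the oxidative defence list 6 of 31 genes were called lower and 1 higher: besides sod-3 and nnt-1 the lower ones were the glutathione peroxidase genes gpx-6 (-1.15) and gpx-7 (-0.96) and the cytosolic superoxide dismutase genes sod-5 (-1.36, lost when any 1 of 7 arrays was left out) and sod-1 (-0.48), and the higher one was the intestinal thioredoxin gene trx-3 (1.05). In a list of 12 genes that holds metallothioneins, ferritins and cdr genes, 3 were called lower, mtl-1, cdr-2 and cdr-4, and 1 higher, mtl-2. The glutathione transferase-like gene cdr-2, named for its induction by cadmium, fell in the mutant: it read 6.75 and 6.88 in starved daf-16 and 9.33, 9.09 and 9.07 in untreated daf-16, against 8.86, 8.78 and 8.76 in starved N2 and 8.82, 8.73 and 8.74 in untreated N2. The starved daf-16 arrays alone stood apart. Here N2 did not respond measurably (0.04, adjusted p = 0.82) and daf-16 fell by 2.35, which gave an interaction of -2.39 ± 0.18 (adjusted p = 8.8e-11). Its relative cdr-4 had an interaction of -0.80. The other metallothionein gene, mtl-2, was called in the opposite direction to mtl-1, at 0.58 ± 0.16, since it fell by 0.51 in daf-16 and by 1.09 in N2; its call was lost when any 1 of 6 arrays was left out.

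Detoxification enzymes were called in both directions, and lower was not tested against higher. Of 45 glutathione S-transferase genes 8 were called lower and 1 higher, beside 1.80% and 1.44% of all genes. The largest was gst-41 (-2.33 ± 0.37), which rose by 1.23 in daf-16 and 3.56 in N2. Its probe set is shared between genes by its name, so this reading is uncertain. The gene gst-4, a common reporter of oxidative stress, fell by 0.98 in daf-16. It read 7.51 and 7.60 in starved daf-16 larvae and 8.59, 8.65 and 8.36 in untreated ones. Its change of 0.24 in N2 did not pass (interaction -1.22 ± 0.21). Of 64 UDP-glucuronosyltransferases, which attach sugars to small molecules, 9 were called lower and 4 higher, and of 73 cytochrome P450 genes 4 lower and 2 higher. The glucuronosyltransferase gene ugt-29 (-1.33) fell by 1.25 in daf-16 with no measurable change in N2 (0.08), a call lost when any 1 of 8 arrays was left out, and ugt-41 (0.93) fell in both strains but less in daf-16. Among P450 genes cyp-34A9 (-1.65) rose in N2 alone by the test within each strain, cyp-25A1 (-1.34) rose in both but less in daf-16, and cyp-13A1 (0.89) rose in both and further in daf-16. Of 50 short-chain and aldehyde dehydrogenases 6 were called lower, with dhs-7 (-1.17), dhs-9 (-1.0) and dhs-12 (-0.95) as the largest, and 1 higher, the alcohol dehydrogenase gene sodh-2 (0.96). Without starved daf-16 replicate 1 the calls were 5 for the glutathione transferases, 6 for the glucuronosyltransferases and 3 for the P450 genes, against 9, 13 and 6 with all arrays; without replicate 2 they were 5, 8 and 2, and without untreated N2 replicate 2 they were 5 for the transferases and 3 for the P450 genes.

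Genes that break down fat were called in both directions, 5 lower and 7 higher of 81, beside 1.80% and 1.44% of all genes. Their median interaction was -0.03. The lysosomal lipase gene lipl-4, whose product hydrolyses stored lipid and whose expression is tied to long life, was lower on the starved daf-16 arrays (3.78 and 3.56, untreated 3.62, 4.02 and 3.92) than on the starved N2 arrays (5.56, 5.28 and 5.62, untreated 3.91, 4.06 and 3.99). It rose by 1.51 in N2 and did not change measurably in daf-16 (-0.18, adjusted p = 0.26), and the interaction was -1.69 ± 0.18 (adjusted p = 1.4e-07). The lipase gene lipl-2 (-1.30), the acyl-CoA synthetase gene acs-3 (-1.54), the acyl-CoA dehydrogenase gene acdh-1 (-0.95) and the lipid-binding protein gene lbp-6 (-0.61) were the others on this side, and acs-3 lost its call when any 1 of the 11 arrays was left out. In the other direction the adipose triglyceride lipase gene atgl-1, which acts on lipid droplets, read 7.95 and 7.96 in starved daf-16 and 6.26, 6.38 and 6.37 in untreated daf-16, against 7.34, 7.32 and 7.23 in starved N2 and 6.77, 6.61 and 6.77 in untreated N2. Starvation raised it in both strains and further in daf-16 (1.62 and 0.58, interaction 1.04 ± 0.24, adjusted p = 0.0096). The peroxisomal oxidase gene acox-1.2 fell in both, by 3.63 in daf-16 and 4.94 in N2, with a call lost when any 1 of 5 arrays was left out. Without starved daf-16 replicate 2 the 12 calls of this list were 6, and atgl-1 lost its call.

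Of 16 glycolysis genes 2 were called, both lower, where 1.80% of all genes were called lower. These were the pyruvate kinase gene pyk-2 (-0.86 ± 0.12) and the phosphoglycerate mutase gene ipgm-1 (-0.52 ± 0.12). Each rose in N2, by 0.99 and 0.51, with changes of 0.12 and -0.01 in daf-16 that did not pass. The call of ipgm-1 was lost without starved daf-16 replicate 2, which left 1 of the 16. None of 19 genes of gluconeogenesis, trehalose synthesis and the glyoxylate cycle was called, although 3 were called without starved N2 replicate 1. Of the 19, 8 had an unadjusted p under 0.05 in limma, where 12.9% of all probe sets did. Starvation raised 11 in daf-16 (27% of all probe sets) and 12 in N2 (28.3%). Among starved larvae 6 of these 19 were called lower in daf-16 than in N2 (3.72% of all probe sets) and 1 higher (4.04%). The tricarboxylic acid cycle and respiratory chain gave 1 call each way of 57, a share (3.51%) near the 3.24% of all genes.

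Cuticle collagens gave 16 calls of 147 (10.9%), all lower, where 1.80% of all genes were called lower. The list had a median interaction of -0.22. Starvation lowered 87 of its members in daf-16, where 24.2% of all probe sets fell, and 74 in N2 (24.7%). Among untreated larvae 7 of the 147 were called higher in daf-16 than in N2 (0.825% of all probe sets) and none lower. Among starved larvae 14 were called lower in daf-16 (3.72%) and none higher. The collagen gene col-98 read 8.76 and 8.58 in starved daf-16 and 8.98, 9.46 and 9.31 in untreated daf-16, against 10.90, 10.85 and 10.93 in starved N2 and 10.01, 9.31 and 9.17 in untreated N2 (interaction -1.98 ± 0.34, adjusted p = 3.4e-04). It rose in N2 by 1.40, as did col-103 by 1.74, and neither rose in daf-16 (-0.58 and -0.07, neither called). Another pair, col-107 (-1.42) and col-80 (-1.30, lost when any 1 of 9 arrays was left out), rose in both strains but less in daf-16, and col-17 and dpy-13 fell in both but further in daf-16 (-4.0 and -2.57 for col-17, -2.29 and -1.36 for dpy-13). Without either starved daf-16 array 8 of the 147 were called, against 31 when the 3 arrays that stood apart were left out. Of 40 transthyretin-like genes, secreted proteins of a family expanded in nematodes, 6 were called, all lower, beside 1.80% of all genes. They were led by ttr-5 (-1.12 ± 0.18) and ttr-25 (-1.03 ± 0.18), and without starved daf-16 replicate 2 there were 3. Hypodermal and seam cell markers gave 1 call each way of 13, col-12 (-0.96) and the molting regulator gene nhr-23 (0.65, lost when any 1 of 7 arrays was left out), and their part in the collagen counts was not tested. Of 80 hedgehog-related and patched-related genes, many of them expressed in the skin, 4 were called, all lower, with grd-2 (-1.51) and grd-3 (-1.46) first. That count was 2 without any 1 of 8 arrays and 1 without starved daf-16 replicate 2.

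On the higher side the groups were smaller. Proteases and pumps of the lysosome had 5 of 47 genes called higher and 1 lower, beside 1.44% and 1.80% of all genes. The cathepsin B-like gene cpr-5 fell in both strains, less in daf-16: it read 10.81 and 10.77 in starved daf-16 and 12.24, 12.08 and 12.36 in untreated daf-16, against 9.75, 9.41 and 9.54 in starved N2 and 11.97 to 12.07 in untreated N2 (interaction 1.01 ± 0.11, adjusted p = 4.7e-07). Its relative cpr-4 rose by 0.64 in daf-16 and fell by 0.30 in N2 (interaction 0.94 ± 0.14). The aspartyl protease gene asp-11 (1.05), cpr-9 (0.70) and the nuclease gene nuc-1 (0.44) were the other higher ones, and cpr-2 (-0.97) was the lower one.

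Immune defence genes were called in both directions. Of 53 lysozyme, saposin-like and antimicrobial peptide genes 4 were called higher and 2 lower, beside 1.44% and 1.80% of all genes. The invertebrate-type lysozyme gene ilys-5 fell in both strains, less in daf-16. It read 10.98 and 11.05 in starved daf-16 and 13.27, 13.25 and 13.31 in untreated daf-16. In N2 it read 9.19, 9.16 and 9.07 starved and 13.04, 13.24 and 13.09 untreated (interaction 1.72 ± 0.22, adjusted p = 2.5e-06 in limma). All 3 of its probe sets were called, but all are shared between genes by their names, so this reading is uncertain. The peptide gene cnc-3 likewise fell less in daf-16 (interaction 1.11 ± 0.18), whereas the lysozyme gene lys-2 fell by 1.67 in daf-16 and had a change of -0.04 in N2 (interaction -1.63 ± 0.22). Of 220 C-type lectins, secreted sugar-binding proteins, 6 were called higher and 5 lower. The lectin gene clec-10 held at 9.67 and 9.86 in starved daf-16 beside 10.09, 10.05 and 10.07 in untreated daf-16, against 7.54, 7.98 and 7.47 in starved N2 and 9.77, 9.78 and 9.75 in untreated N2 (interaction 1.79 ± 0.21, adjusted p = 8.7e-07). In contrast clec-61, read by a probe set shared between related genes and so uncertain, fell by 1.52 in daf-16 and rose by 2.45 in N2 (interaction -3.98 ± 0.52). Without starved daf-16 replicate 2, 7 of the 220 were called instead of 11. Of 19 intestine markers 1 was called, mtl-2, and their part in these counts was not tested.

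Nuclear hormone receptors, a family of ligand-binding transcription factors much enlarged in this worm and led here by nhr-260 (1.28) and nhr-265 (-1.14), gave 7 calls higher and 1 lower of 259, a share (3.09%) near that of all genes, and 2 calls without starved daf-16 replicate 2 and 4 without starved N2 replicate 2. The mitochondrial ribosomal proteins gave 4 calls of 59, all higher, and quantile normalization or leaving out any 1 of 7 arrays left none. Small counts were also found for ABC transporters (1 each way of 54), neuropeptides (1 each way of 85), replication genes (2 higher of 43), fat synthesis (1 lower of 23, the elongase gene elo-6 at -0.66), far genes (1 higher of 8, far-2 at 0.62), pals genes (1 lower of 23), dod and irg genes (1 lower of 17), tRNA synthetases (1 lower of 32) and adult stage markers (1 lower of 31). No call was made by limma among 75 cytosolic ribosomal proteins, 32 ribosome biogenesis genes, 33 proteasome subunits, 12 heterochronic and Notch genes, 28 neuron markers, 22 muscle markers or 23 germ cell markers, of which 17, 4, 4, 1, 1, 3 and 3 had an unadjusted p under 0.05. Without starved N2 replicate 1, 3 of the cytosolic ribosomal proteins and 1 of the muscle markers were called.

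**Figure D3:**
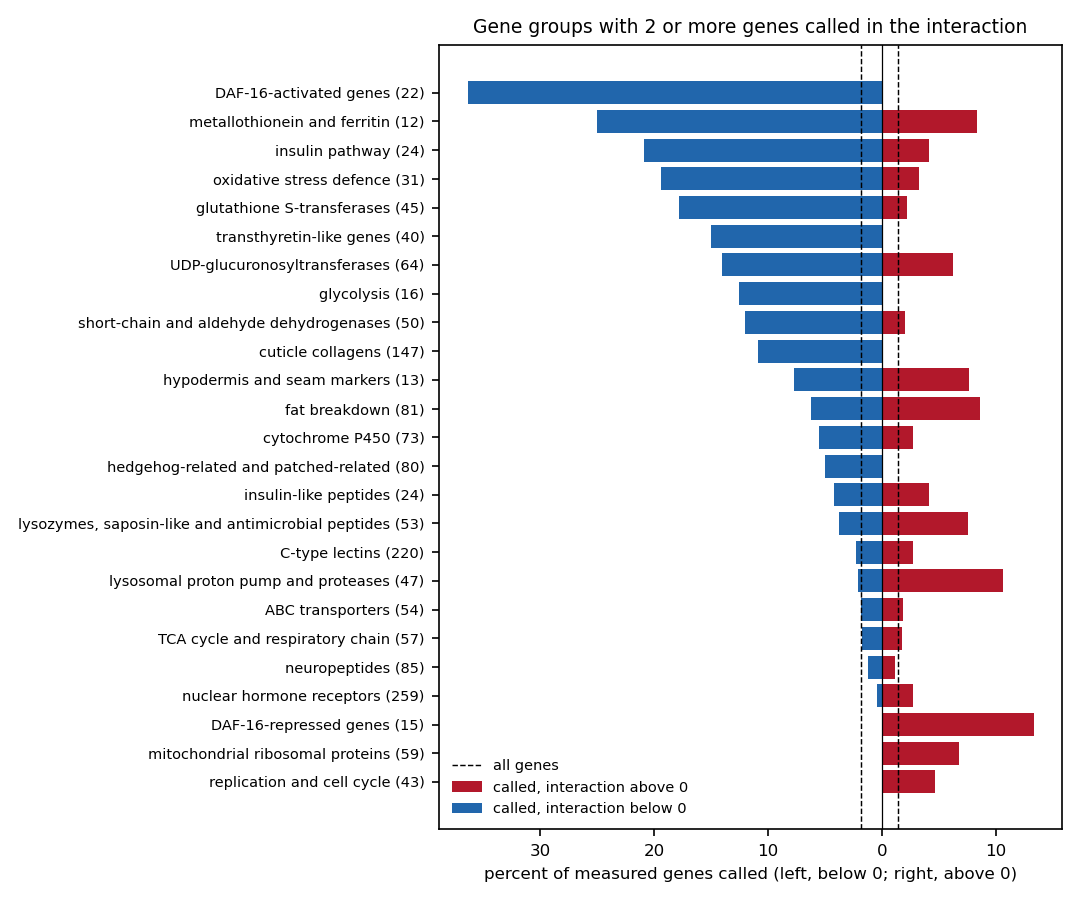
Percent of the measured genes called in the interaction, for each group with 2 or more called, below 0 to the left and above 0 to the right; the number of genes measured is in brackets, and dashed lines mark the 1.80% and 1.44% of all genes called lower and higher. DAF-16-activated genes have 36.4% called below 0, and fat breakdown and lysosomal genes have calls on both sides. The metallothionein and ferritin group also holds cdr genes.

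Of the 15 genes with the largest positive interactions 12 rose upon starvation in daf-16 larvae, and the exceptions were T26E4.4, Y48E1B.8 and clec-10, which fell in N2. The uncharacterized gene F49H6.5 read 7.70 and 7.98 in starved daf-16 and 3.70, 3.52 and 3.50 in untreated daf-16, against 4.92, 5.25 and 5.23 in starved N2 and 3.67, 3.23 and 3.33 in untreated N2 (interaction 2.55 ± 0.36, adjusted p = 1.6e-05). C27H5.6 (2.29 ± 0.31) and T28A11.19 (2.07 ± 0.33) had the same form, with rises of 3.46 and 3.29 in daf-16 and 1.18 and 1.22 in N2. The arginine kinase gene argk-1, whose product buffers ATP, read 8.46 and 8.32 in starved daf-16 and 5.87, 6.00 and 5.97 in untreated daf-16, against 6.19, 5.83 and 6.06 in starved N2 and 5.70, 5.76 and 5.82 in untreated N2. In N2 its change of 0.27 did not pass, in daf-16 it rose by 2.45, and the interaction was 2.18 ± 0.19 (adjusted p = 1.5e-09). F07E5.9 (1.81 ± 0.28) and Y37D8A.4 (1.79 ± 0.21, in both of its probe sets) likewise rose in daf-16, by 1.80 and 1.49, with changes in N2 of -0.01 and -0.30 that did not pass. K05F6.10 (1.44), nspe-1 (1.43) and F36A2.14 (1.40) rose in both strains, and further in daf-16, while F32H2.6 (1.46) and ZK673.1 (1.40) rose in daf-16 and fell in N2. The calls of K05F6.10 and nspe-1 were lost when any 1 of 6 and 7 arrays was left out.

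Several of the largest interactions came mostly from untreated rather than starved larvae. Y38H6C.8 read 5.22 and 5.29 in starved daf-16 and 7.65, 7.19 and 7.53 in untreated daf-16, against 5.09, 5.35 and 5.06 in starved N2 and 5.07, 5.17 and 5.09 in untreated N2, so the untreated daf-16 arrays alone stood apart (interaction -2.26 ± 0.43). Y47D7A.13 (-2.47 ± 0.45) and abu-14 (-2.06 ± 0.58) were higher in untreated daf-16 than in untreated N2 by 1.55 and 1.92, with untreated daf-16 values spread from 8.37 to 10.08 and from 8.38 to 9.96. Between the starved strains they differed by -0.92 and -0.14, neither called. T26E4.4 (1.85 ± 0.51) and Y48E1B.8 (1.71 ± 0.33) were lower in untreated daf-16 than in untreated N2, by 1.85 and 1.48, and did not differ measurably between the starved strains (0.00 and 0.23, adjusted p = 1.0 and 0.68). The calls of abu-14 and T26E4.4 were lost when any 1 of 8 and 9 arrays was left out. The chemoreceptor gene srw-85 differed in both states: it read 3.93 and 3.82 in starved daf-16 and 3.88, 3.49 and 3.68 in untreated daf-16, against 7.93, 8.32 and 8.22 in starved N2 and 5.96, 5.43 and 5.61 in untreated N2 (interaction -2.3 ± 0.29). It was as low in untreated and starved daf-2 larvae, with means of 3.68 and 3.72, and in daf-2;daf-16 larvae, with 3.68 and 4.01. High values were thus seen in N2 alone, and the part of the daf-16 mutation in this difference was not tested.

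Other large negative interactions belonged to genes that rose in N2. H04M03.3 (-2.39 ± 0.18) and C08F11.3 (-1.96 ± 0.23) rose by 2.07 and 2.03 in N2, with changes of -0.32 and 0.08 in daf-16 that did not pass. T06C12.14 (-2.56 ± 0.39) and T12D8.5 (-2.27 ± 0.32) rose in both strains, by 0.88 and 1.51 in daf-16 and by 3.44 and 3.79 in N2. An exception was pud-4, named for a protein that is more abundant in daf-2 mutants, which fell by 2.41 in daf-16 with a change of -0.36 in N2 that did not pass (interaction -2.05 ± 0.45).

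Responses called in opposite directions in the strains were few, 42 probe sets in all and 28 genes with an unshared probe set. Besides sod-3 and sip-1 the largest were C40H1.7, which rose by 0.87 in daf-16 and fell by 0.87 in N2 (interaction 1.74 ± 0.20), clec-82, which fell by 0.78 in daf-16 and rose by 0.80 in N2 (-1.58 ± 0.33), and E04F6.9, which fell by 1.08 in daf-16 and rose by 0.48 in N2 (-1.56 ± 0.21).

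Whether the interaction recurred when insulin signalling was low was tested in the daf-2 background, where starved and untreated daf-2;daf-16 larvae (4 and 3 arrays) were set against starved and untreated daf-2 larvae (3 and 3), with no array in common. There 2885 probe sets were called (12.8%), 1701 higher (7.54%) and 1184 lower (5.25%). Of the 291 probe sets with a higher interaction against N2, 182 (62.5%) were called higher against daf-2 as well, where 7.54% of all probe sets were; they are 10.7% of the higher calls in that background, and 14 were called lower. Of the 385 lower ones 161 (41.8%) were called lower against daf-2, where 5.25% of all were, or 13.6% of the lower calls there, and 9 were called higher. Leaving out the 2 daf-2;daf-16 arrays that stood apart, with the third from the UV group, gave 59.5% (of a background of 8.45%) for the higher and 43.1% (6.48%) for the lower probe sets. Over the 676 the 2 interactions correlated with r = 0.713, and over all 22548 probe sets with r = 0.396, as a description.

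The genes with the largest interactions divided by direction in this comparison. Of the 15 largest positive ones 12 were called higher in the daf-2 background and 2 differed in size between the backgrounds by the test of that difference, which called 3.01% of all probe sets (1.52% higher and 1.49% lower). F49H6.5 had an interaction of 3.97 ± 0.33 there and argk-1 of 2.07 ± 0.17. Of the 15 largest negative ones 4 were called lower in the daf-2 background and 9 differed between the backgrounds. The genes were chosen for the size of the interaction against N2, which also enters this difference, so the counts of differences describe the genes and do not test them. The ones called in both were sod-3, cdr-2, Y38H6C.8 and col-98, with -1.01, -1.89, -1.88 and -1.98 against daf-2.

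Known DAF-16 targets were among the 9 genes that differed between the backgrounds, under the same limit. In daf-2;daf-16 larvae sod-3 averaged 4.46 starved and 5.71 untreated, against 8.54 starved and 8.77 untreated in daf-2. Its interaction of -1.01 was smaller than the -3.67 against N2 (adjusted p of the difference = 1.6e-07). The double mutant averaged 5.81 starved and 6.43 untreated for sip-1, while daf-2 averaged 9.46 and 10.02, with an interaction of -0.06 ± 0.18 that was not called. For mtl-1 the double mutant averaged 4.54 starved and 3.99 untreated, and daf-2 averaged 8.45 and 8.33. For nnt-1 the double mutant averaged 7.65 and 5.78, and daf-2 averaged 9.63 and 8.34. Untreated daf-2 larvae thus already stood above the starved N2 mean for sod-3, sip-1 and mtl-1 (7.70, 8.84 and 7.05) and below it for nnt-1 (9.68). The lipase gene lipl-4 averaged 3.53 starved and 3.69 untreated in the double mutant, with 6.5 and 4.93 in daf-2, and its interaction of -1.73 ± 0.16 there did not differ measurably from the -1.69 against N2 (adjusted p = 0.97). Of the 22 genes of the DAF-16-activated list 8 were called lower and 3 higher in the daf-2 background, with a median interaction of -0.09. Of the 147 collagens 49 were called lower there and none higher. These counts stand beside 5.25% of all probe sets called lower in that background and 7.54% called higher.

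**Figure D4:**
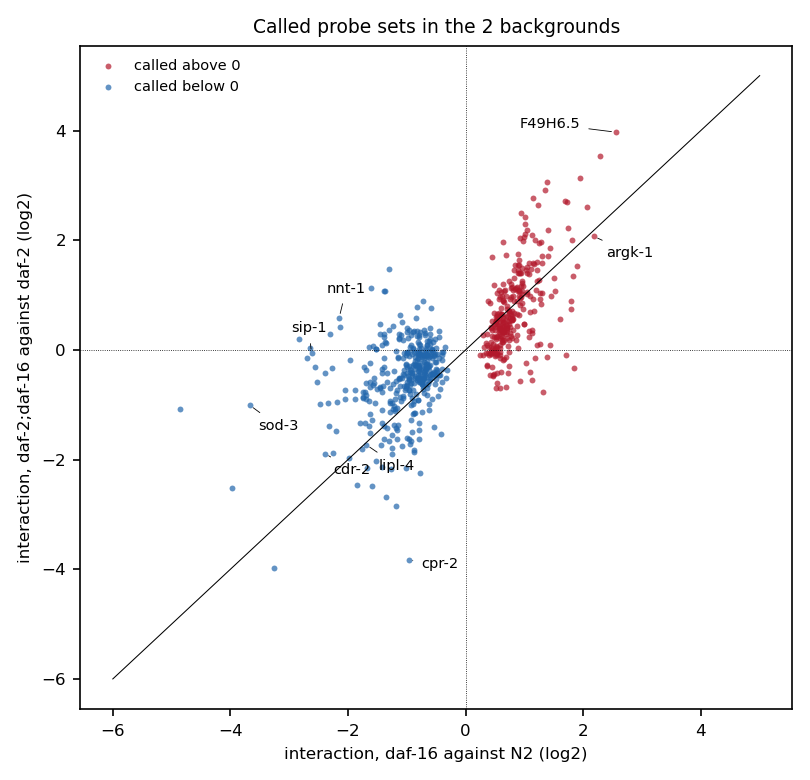
Interaction in the daf-2 background (daf-2;daf-16 against daf-2, log2, vertical) against the interaction of daf-16 against N2 (horizontal) for the 676 called probe sets; the line marks equal values. Most called points keep their sign, 80.8% of those below 0 and 84.2% of those above, and sip-1 and nnt-1 lie far from the line.

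The same mutation was also examined after UV irradiation, and the 2 interactions share the untreated arrays, so their values are given side by side only. After UV 417 probe sets were called (1.85%, or 1.04% higher and 0.807% lower), a count that was 38 with only the 4 groups of that comparison in the model. The interaction with UV was -0.79 ± 0.18 for sod-3, -0.98 ± 0.18 for sip-1, -0.98 ± 0.26 for nnt-1, -0.29 ± 0.17 for cdr-2 and 0.07 ± 0.17 for argk-1, beside -3.67, -2.62, -2.15, -2.39 and 2.18 with starvation. The difference between the starvation and UV interactions, in which the untreated arrays cancel, was called for 1326 probe sets (5.88%), and for 13 of the 15 largest negative genes (3.51% of all probe sets in that direction) and 12 of the 15 largest positive ones (2.37%). These genes were chosen for their size with starvation on the same starved arrays, so the counts are a description. Of the 1326, 40.3% were higher with starvation, a share that was 53.4% after quantile normalization. T26E4.4, set apart by its untreated levels, had nearly the same value with UV (1.82) as with starvation (1.85).

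**Figure D5:**
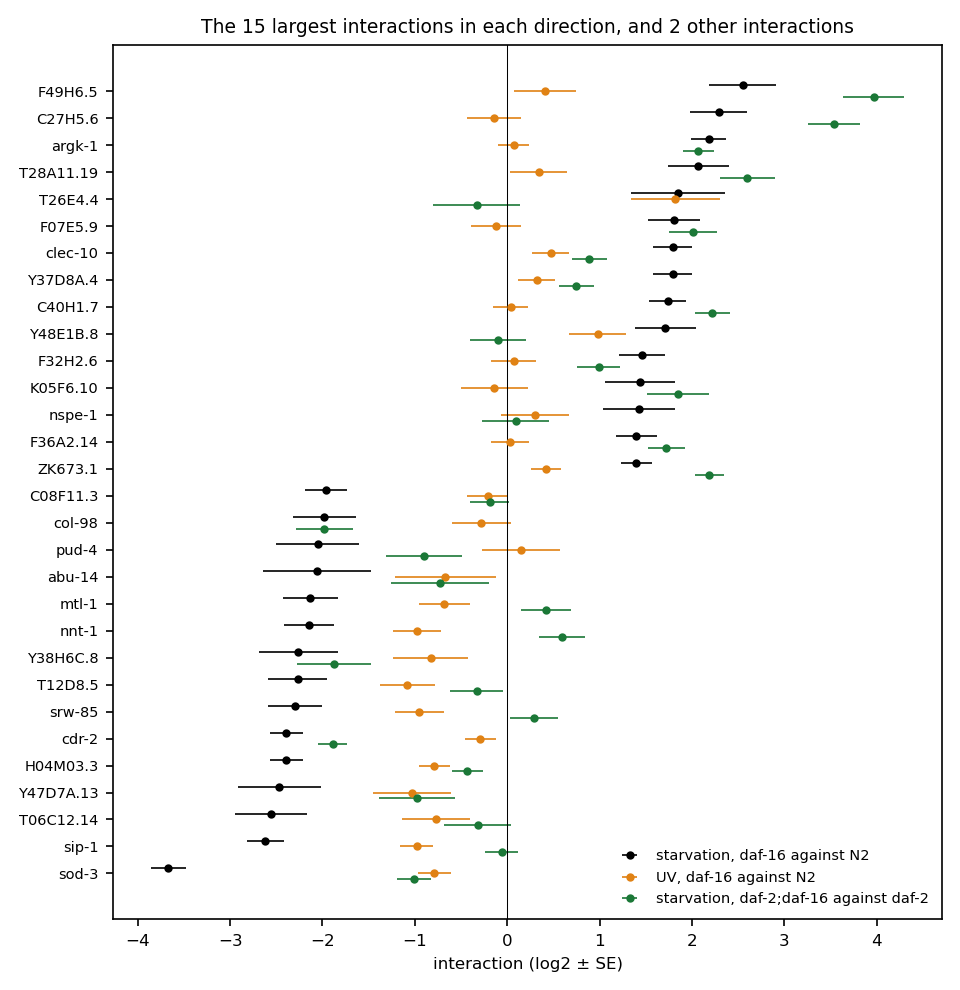
The 15 largest positive and 15 largest negative interactions of starvation with daf-16 (black), beside the interaction with UV (orange) and the starvation interaction in the daf-2 background (green); points are log2 estimates and bars are standard errors. Green points lie beside the black ones for most genes above 0, while for sip-1, mtl-1 and nnt-1 they lie near or above 0.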

How the data were processed

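RNA of L1 larvae was measured on 36 Affymetrix arrays in 12 groups. The values are log2 intensities per probe set as deposited by the authors, and the submitters' processing notes name Affymetrix Power Tools; neither the normalization nor the genome build is stated in the labels, so no coordinates or sequences are shown. Genes were named from the platform annotation, updated through RefSeq.

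A mean per group was fitted over all 36 arrays with limma 3.58.1 in R 4.3.3 (eBayes with an intensity trend, 24 residual degrees of freedom), and p-values were adjusted by Benjamini-Hochberg over 22548 probe sets after 77 controls were left out; a call is an adjusted p under 0.05. All adjusted p-values are from this model, and SE is its standard error. A list counts each gene through its probe set of highest mean. Named genes are the 15 largest interactions in each direction among called, unshared probe sets of stable sign, up to 4 called members per list, up to 5 genes with opposite responses, daf-16 and daf-2; further list members, among them hil-1, atgl-1 and trx-3, and lea-1 were chosen after their values were seen. The members and lists were chosen with earlier results of these data known. The scripts were checked on simulated data. Replicate numbers were not used to pair the arrays: of 15 same-number pairs 2 had deviations correlated over 0.1. Both joined starved N2 with starved daf-16, for replicate 1 (r = 0.204) and replicate 2 (r = 0.124). Pairs of unlike number reached 0.152 at most. A shared batch of these starved arrays was not tested. Other normalizations, model settings, probe filters and leaving out each array were tried.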

Additional observations from a re-analysis of the deposited data

Results flagged for a closer look

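These results are listed because an effect differed between groups under the same contrast, by the test of the difference. The starvation response differed between daf-16 and N2 for 676 probe sets. The starvation interaction differed between the N2 and daf-2 backgrounds for 679 probe sets, and the daf-16 interaction differed between starvation and UV for 1326. Starvation moved the strains in opposite directions, each past the threshold, in 28 genes with an unshared probe set. In the 5 of these with the largest interactions it was -3.67 for sod-3, -2.62 for sip-1, 1.74 for C40H1.7, -1.58 for clec-82 and -1.56 for E04F6.9. No cause was tested for any of these differences.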

How the results depend on the processing

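The 676 calls of the interaction kept their sign under all settings run, and 365 to 587 of them stayed called when 1 of the 11 arrays was left out. With 1 array left out in turn, the counts ran from 386 (without starved daf-16 replicate 2) to 720 for the interaction, 149 to 309 for its higher and 226 to 411 for its lower calls, 845 to 2036 for starved daf-16 against N2, 172 to 250 for untreated daf-16 against N2, 379 to 1141 for the difference between backgrounds, 97 to 1493 for the UV interaction and 587 to 2501 for starvation minus UV. With estimated array weights the counts were 1672 for the interaction (799 higher, 873 lower), 3356 starved, 763 untreated, 5362 in the daf-2 background, 2590 between backgrounds, 2444 for UV and 3524 for starvation minus UV. With only the groups of each contrast they were 1138 (499 higher, 639 lower), 663 untreated, 38 for UV and 588 for starvation minus UV. Leaving out the 3 arrays that stood apart gave 1195 (526 and 669), 648 untreated, 1501 between backgrounds, 2173 for UV and 3175 for starvation minus UV. Without shared probe sets, where fewer are tested, they were 426 (192 and 234), 7454 for the daf-16 and 7583 for the N2 response, 1098 starved, 211 untreated, 1729 in the daf-2 background, 323 between backgrounds, 187 for UV and 778 for starvation minus UV. The cause of the other moves was not tested. For single genes, 2225 of 2462 alternatives left the call as it was, 236 lost it, 1 gained it and none turned its direction. With the replicate number as a block 843 probe sets were called (377 higher, 466 lower), 666 of the 676 among them. Of the 11 arrays 4 correlated best with their own number, and whether equal numbers mark a shared batch was not tested. The planned search for motifs in promoters was not run, since no sequences were used here. With 2 starved daf-16 arrays, the precision of every interaction is limited by their number.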
